A study of Saccharomyces cerevisiae with 2 samples.

Results

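The genes described here make inositol and the phospholipids of yeast membranes, or control that synthesis. They were chosen by name, as the rows of the deposited table for INO1, INO2, INO4, OPI1, OPI3, CHO1, CHO2, ITR1, PSD1 and PIS1, and all 10 were found among 6142 named rows. Cells of Saccharomyces cerevisiae BY4741, a haploid laboratory strain, were grown in rich glucose medium (YPD) to mid-log phase. The PQ culture spent 8 h with 2.5 mM paraquat, while the WT culture, of the same strain and medium, had none. Paraquat is a herbicide that cycles electrons to oxygen inside cells and so makes superoxide. Each group was 1 library, so no difference below has a replicate check, and the time that the untreated culture spent in medium is not given in the labels, so time and paraquat cannot be told apart.

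Named genes held 165264107 reads in the PQ library and 164909400 in the WT library. Values are normalized reads, which are read counts divided by 1 size factor per library, and folds are PQ over WT with 95% exact binomial intervals of the read split. These intervals cover counting error only, take reads as independent and say nothing of the spread between cultures. BY4741 is of mating type a, and its 6 a-cell markers lay between 13130 and 295789 normalized reads per kilobase in PQ and between 16486 and 452579 in WT. The 4 markers of alpha cells lay between 84.3 and 4025 in PQ and between 109.9 and 2935 in WT, below every a-cell marker in both libraries. No values are given here for genes deleted in this strain, LEU2, URA3 and MET17 among them.

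Inositol enters phosphatidylinositol, while phosphatidylserine, phosphatidylethanolamine and phosphatidylcholine are made in sequence from CDP-diacylglycerol, the precursor that both branches share. Ino2 and Ino4 bind together to an inositol-responsive element in the promoters of many of these genes and activate them. Opi1 is held at the endoplasmic reticulum by phosphatidate and the membrane protein Scs2, and represses the same genes when inositol is plentiful and phosphatidate is consumed. INO1 is the classic target of this switch and is kept low in medium that contains inositol.

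The promoter sequences show which of the 10 genes carry the letters of that element. The motif searched was CATGTGAA, which reads TTCACATG when it lies on the other strand. Its first 6 letters, CATGTG, were searched as the core, and CATGTGAAA, which contains the motif, as a longer form. All were searched on both strands. The window ran from 250 bases before the start codon to 50 bases after it. Sequences were read by gene name from the RefSeq R64 genome, on the strand of each gene and 5′ to 3′. The sources used here do not name the build behind the deposited table, so positions are given as distances from the start codon and not as genome coordinates. Capitals mark every match to the core or to the 8-base motif.

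The first set shows the 250 bases before the start codon of the target with the largest change and of both activators.

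INO1 (YJL153C, chromosome X, minus strand): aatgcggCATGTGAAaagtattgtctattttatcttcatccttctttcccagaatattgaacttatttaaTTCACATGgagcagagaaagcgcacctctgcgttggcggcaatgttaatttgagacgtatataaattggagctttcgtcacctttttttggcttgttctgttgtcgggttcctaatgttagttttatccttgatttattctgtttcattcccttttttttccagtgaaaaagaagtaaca

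INO2 (YDR123C, chromosome IV, minus strand): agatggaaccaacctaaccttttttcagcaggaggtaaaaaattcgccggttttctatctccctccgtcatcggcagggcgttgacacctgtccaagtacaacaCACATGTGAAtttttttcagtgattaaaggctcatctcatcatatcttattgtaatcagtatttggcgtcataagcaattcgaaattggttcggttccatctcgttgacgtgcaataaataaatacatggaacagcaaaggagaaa

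INO4 (YOL108C, chromosome XV, minus strand): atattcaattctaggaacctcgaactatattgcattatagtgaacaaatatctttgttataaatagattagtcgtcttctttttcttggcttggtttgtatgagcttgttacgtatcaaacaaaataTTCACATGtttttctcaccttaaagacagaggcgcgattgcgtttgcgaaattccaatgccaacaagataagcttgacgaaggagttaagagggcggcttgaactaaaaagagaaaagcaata

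The second set shows shorter stretches around the matches of the inositol transporter gene and of the 4 genes from phosphatidylserine to phosphatidylcholine, because their matches differ in length and in distance.

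ITR1 (YDR497C, chromosome IV, minus strand, from 406 to 202 bases before the start codon): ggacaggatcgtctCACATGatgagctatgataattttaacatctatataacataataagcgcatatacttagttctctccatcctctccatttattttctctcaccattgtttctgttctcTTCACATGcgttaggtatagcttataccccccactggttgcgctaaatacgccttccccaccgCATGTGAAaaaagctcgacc

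CHO1 (YER026C, chromosome V, minus strand, from 173 to 140 bases): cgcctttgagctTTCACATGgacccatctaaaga

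PSD1 (YNL169C, chromosome XIV, minus strand, from 254 to 145 bases): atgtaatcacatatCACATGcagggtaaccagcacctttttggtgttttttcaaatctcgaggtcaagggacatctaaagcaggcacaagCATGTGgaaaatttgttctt

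CHO2 (YGR157W, chromosome VII, plus strand, from 352 to 248 bases): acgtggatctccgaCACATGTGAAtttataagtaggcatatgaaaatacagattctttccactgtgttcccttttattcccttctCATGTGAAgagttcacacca

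OPI3 (YJR073C, chromosome X, minus strand, from 226 to 129 bases): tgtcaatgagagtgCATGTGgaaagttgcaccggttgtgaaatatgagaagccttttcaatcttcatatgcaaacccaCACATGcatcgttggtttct

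The 8-base motif was in the window of 5 of the 10 genes (50%), INO1, INO2, INO4, ITR1 and CHO1, and in 42 of 6000 promoters of the same length (0.700%). INO1 held it on both strands, starting 243 and 180 bases before the start codon. INO2 held it at 144 bases, overlapped by a core match on the other strand, INO4 at 123, ITR1 at 221 and CHO1 at 161. The core alone was in the windows of OPI3 and PSD1 as well, which makes 7 of 10 genes (70%) against 415 of 6000 promoters (6.92%). The 9-base form was in those of INO1, ITR1 and CHO1 (3 of 10, 30%) and of 23 promoters (0.383%). Outside the window lay both matches of CHO2, at 336 and 267 bases, and a second match of ITR1, at 284 bases. With a window reaching 500 bases before the start codon, chosen after seeing the data, 6 of 10 genes (60%) and 93 of 6000 promoters (1.55%) held the 8-base motif. OPI1 and PIS1 had no match to the core in the longer window. A match is a description of the letters and not of binding. The element was already known from the promoters of many of these genes, so its higher share among the 10 is no independent result.

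**Figure D1:**
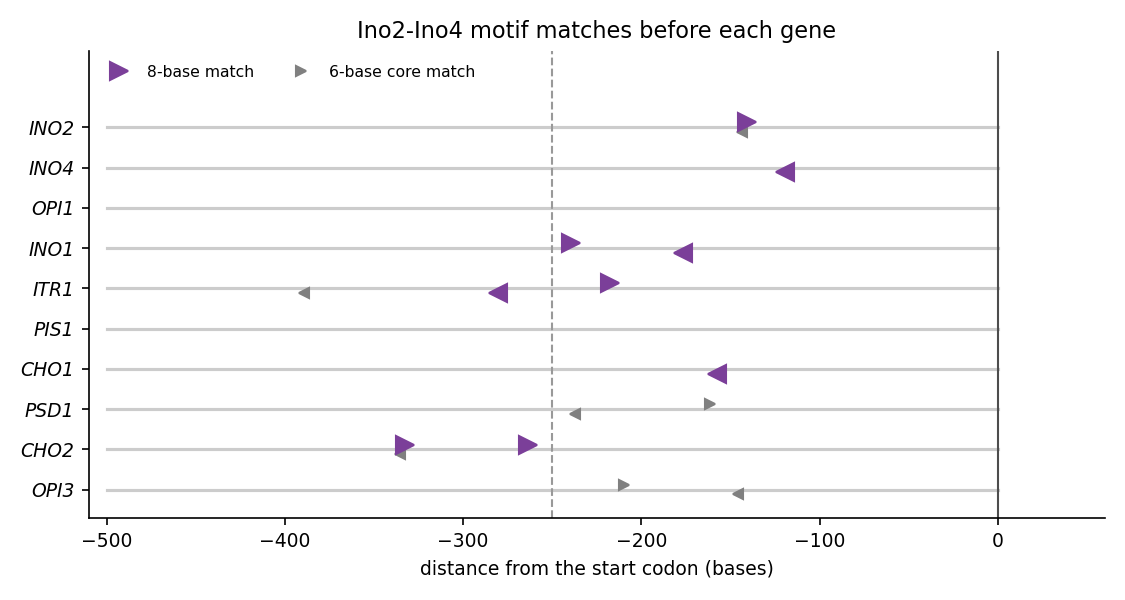
Position of each motif match before the start codon of the 10 genes, in bases, with large purple triangles for the 8-base motif and small grey ones for the 6-base core alone or overlapping it; triangles pointing right lie on the strand of the gene and the dashed line is 250 bases before the start. INO1, ITR1 and CHO2 each have 2 matches to the 8-base motif, and OPI1 and PIS1 have no match.

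The activator pair and the gene at the head of the pathway differed between libraries in opposite directions. INO2 and INO4 were 1.65-fold and 1.56-fold lower in PQ, and INO1 was 1.69-fold higher. OPI1, PIS1 and CHO1 differed by at most 1.10-fold. Past a limit of 1.5-fold, 1 of the 10 genes was higher and 2 were lower. The limit was applied to the 5973 genes whose mean over both libraries reached 50 normalized reads, all 10 among them, and 7.75% of these were higher and 5.88% lower. At 2-fold the counts were 0 and 0 of 10, where 3.08% of all genes were higher and 1.52% lower. With so few genes past either fold, the counts alone say little about the 10 as a set.

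INO2 encodes the helix-loop-helix activator that carries the activation domain of the pair. It had 2456 normalized reads in PQ and 4056 in WT, a log2 change of -0.72 and a 1.65-fold lower value (1.57 to 1.74). INO4 encodes its partner, which INO2 needs to bind DNA. It had 3253 normalized reads in PQ and 5071 in WT, a log2 change of -0.64 and a 1.56-fold lower value (1.49 to 1.63). INO2 stood 212th and INO4 301st from the lowest log2 change of the 5973 genes. The lower end of the INO4 interval falls just inside 1.5-fold.

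OPI1, the repressor, did not share that direction. It had 14731 normalized reads in PQ and 13380 in WT, which is 1.10-fold higher (1.08 to 1.13). Ratios between genes of one library do not depend on how the libraries are scaled, and these are given per kilobase of gene. INO2 over OPI1 was 0.221 in PQ and 0.403 in WT, a 1.82-fold lower ratio (1.72 to 1.92). INO4 over OPI1 was 0.588 in PQ and 1.01 in WT, a 1.72-fold lower ratio (1.63 to 1.80). In PQ there was thus less activator transcript for each repressor transcript. INO2 over INO4 was 0.376 in PQ and 0.399 in WT, and the interval of that change (0.992-fold to 1.13-fold lower) includes no change.

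**Figure D2:**
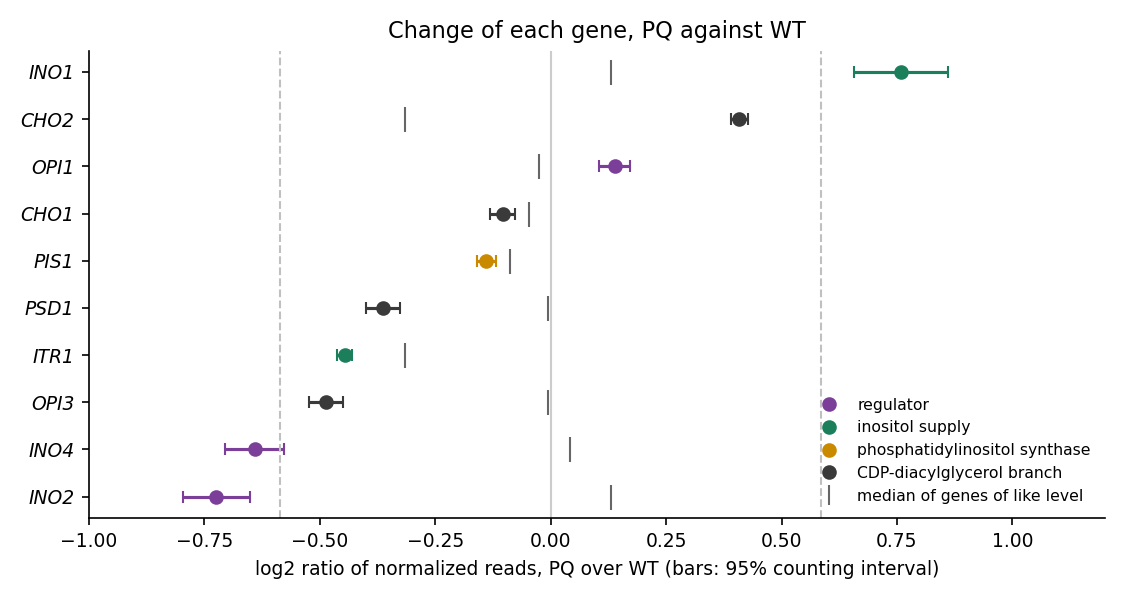
Log2 ratio of normalized reads, PQ over WT, for each of the 10 genes, with 95% counting intervals, coloured by role; dashed lines are 1.5-fold and grey ticks the median of the genes in the same class of mean level. INO1 lies beyond the upper line at 0.76, INO2 and INO4 beyond the lower line at -0.72 and -0.64, and the other 7 genes between the lines.

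The genes that supply inositol were on opposite sides. INO1 encodes inositol-3-phosphate synthase, the rate-limiting enzyme of inositol synthesis, and had 2212 normalized reads in PQ and 1308 in WT. Its log2 change was 0.76, or 1.69-fold (1.58 to 1.81), the 300th highest of the 5973. ITR1 encodes the main inositol transporter and had 50638 normalized reads in PQ and 68960 in WT, which is 1.36-fold lower (1.35 to 1.38). INO1 over ITR1, per kilobase, was 0.0478 in PQ and 0.0208 in WT, a 2.30-fold higher ratio (2.15 to 2.47). INO1 was nevertheless the scarcest of the 10 transcripts per kilobase in both libraries. INO1 over INO2 was 0.514 in PQ and 0.184 in WT, a 2.79-fold higher ratio (2.57 to 3.04), so INO1 stood higher and the transcript of its activator lower in the same library. ITR2, the minor inositol transporter, had 27740 normalized reads in PQ and 26928 in WT. It is the gene most similar to ITR1 in sequence, at 76.1% identity over 87.6% of the length of ITR1, below the 95% used here for near-identical copies.

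PIS1 joins inositol to CDP-diacylglycerol to make phosphatidylinositol. It had 37454 normalized reads in PQ and 41255 in WT, which is 1.10-fold lower (1.09 to 1.12). CHO1 encodes phosphatidylserine synthase, which competes for the same CDP-diacylglycerol. It had 21183 normalized reads in PQ and 22762 in WT, which is 1.07-fold lower (1.05 to 1.09). The balance of the competing enzymes' transcripts was close to the same in both libraries, with CHO1 over PIS1 per kilobase at 0.451 in PQ and 0.440 in WT.

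The steps after phosphatidylserine parted at the methyltransferases. PSD1, the mitochondrial decarboxylase that makes phosphatidylethanolamine, had 10858 normalized reads in PQ and 13962 in WT, which is 1.29-fold lower (1.25 to 1.32). CHO2, which adds the first methyl group to phosphatidylethanolamine, had 56595 in PQ and 42648 in WT, which is 1.33-fold higher (1.31 to 1.34). OPI3, which adds the remaining methyl groups to give phosphatidylcholine, had 10129 in PQ and 14181 in WT, which is 1.40-fold lower (1.36 to 1.44). Consecutive enzymes of one route thus lay on opposite sides, although neither passed 1.5-fold. CHO2 over OPI3 per kilobase was 1.33 in PQ and 0.716 in WT, a 1.86-fold higher ratio (1.81 to 1.91), so the order of the pair was reversed between libraries.

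**Figure D3:**
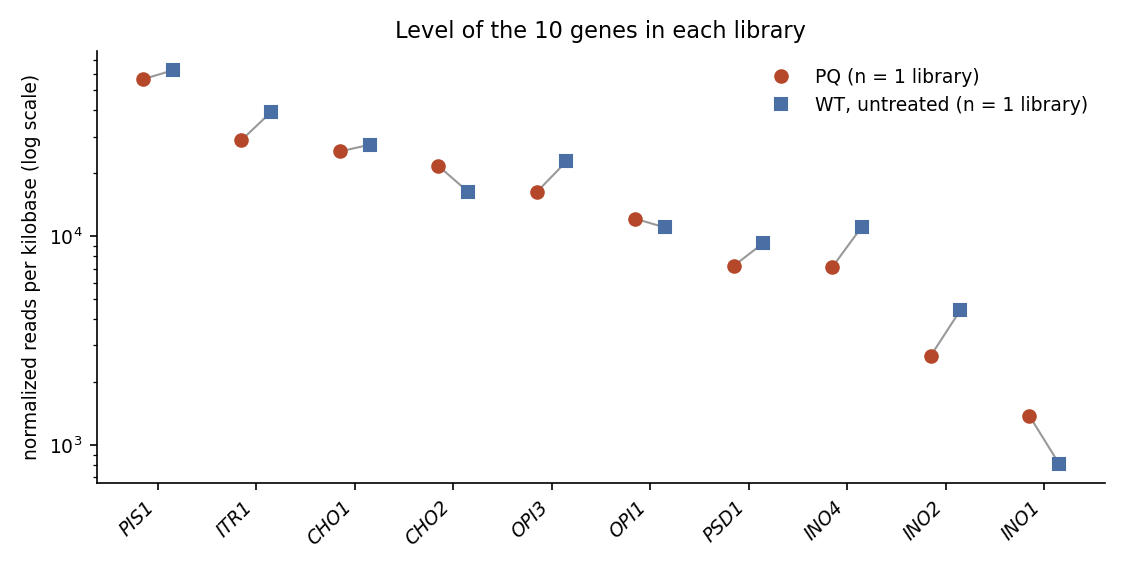
Normalized reads per kilobase of gene on a log scale for the 10 genes, ordered by their level in PQ, with 1 circle for the PQ library left of 1 square for the WT library and no error bar because each group is 1 library. PIS1 is highest at 56491 in PQ and 62225 in WT, INO1 is lowest at 1381 in PQ and 816 in WT, and the symbols of CHO2, OPI1 and INO1 slope the other way from the rest.

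Per kilobase, the order of the genes in PQ was PIS1, ITR1, CHO1, CHO2, OPI3, OPI1, PSD1, INO4, INO2 and INO1. In WT the first 3 and the last 2 were the same, and OPI3 stood above CHO2 and INO4 above OPI1 and PSD1. INO4 thus moved to eighth place in PQ from sixth in WT, with 7133 and 11121 normalized reads per kilobase in PQ and WT. With 1 library per group the spread behind each place in the order is not known.

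Regulators and the enzyme and transporter genes were set side by side as groups. The 3 regulators had a median log2 change of -0.64, and the 7 enzyme and transporter genes a median of -0.14, against 0.00 over all genes (-0.0029). The median of the 7 is the value of PIS1, whose promoter window held no core match. The difference between both medians was 0.50 on the log2 scale. Among the 7, 5 were below 0 and 2 above, where 3006 of all 5973 genes were below 0 and 2966 above. Of the 5, CHO1 and PIS1 changed sign when the libraries were scaled to their total reads. Values of the 7 ran from -0.49 for OPI3 to 0.76 for INO1, and among the regulators OPI1 lay apart from the activators. The values of single genes thus spread over a wider range within each group than the medians differ.

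The level of a gene and the scaling of the libraries both bear on these values. Genes in the class of INO1 and INO2, the second lowest of 10 classes of mean level, had a median log2 change of 0.13, and those in the highest class, which holds ITR1 and CHO2, -0.31. Relative to its class, CHO2 was 0.72 higher, INO1 0.63 higher, INO2 -0.86 and ITR1 -0.13. When the libraries were scaled to their totals of reads on named genes, each log2 value was 0.26 higher and the median gene stood at 0.26. The log2 changes then read 1.02 for INO1, 0.67 for CHO2, 0.40 for OPI1, -0.47 for INO2 and -0.38 for INO4, and CHO1 (0.16) and PIS1 (0.12) change sign. Under that scaling 2 of the 10 genes are past 1.5-fold on the higher side and 0 on the lower side, where 16.9% of all genes are higher and 2.36% lower.

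In the authors' deposited table the smallest p-value among the 10 genes was 0.142, for INO2, and 0 of the 10 had an unadjusted p under 0.05. Over all genes, the authors' deposited table has 130 with an unadjusted p under 0.05 and 0 with an adjusted p under 0.05. That test had 1 library per group and so no replicates from which to estimate the spread.

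All genes whose promoters hold the 8-base motif, 5 of the 10 among them, were then counted. Of the 41 that reached the minimum mean, 7 were at least 1.5-fold lower (17.1%, against 5.88% of all genes) and 1 was higher by as much (2.44%, against 7.75%), which is INO1. The lower ones were FAS2, CSR1, HSC82, INO2, CKI1, ADO1 and INO4, and the median over the 41 was -0.10. Without the 5 members, 5 of 36 were lower (13.9%) and 0 higher, with a median of -0.08. The level of a gene bears on these counts as well. FAS2, HSC82 and ADO1 belong to the highest class of mean level, whose median was -0.31, and relative to that class none of them passed 1.5-fold. USB1, at -0.57 and in the second lowest class (median 0.13), passed it on the lower side relative to its class. The counts past 1.5-fold depend on the scaling, and the alternative of scaling both libraries to total reads was chosen after seeing the data. Under it 1 of the 41 was lower (2.44%, against 2.36% of all genes), which is FAS2. On the higher side were 4 (9.76%, against 16.9%), which are INO1, MEP3, HUA2 and PPH3. That scaling moves every gene alike, and the median of the 41 was then 0.16, against 0.26 over all genes. Under the deposited scaling it was -0.10, against -0.0029. FAS2, the alpha subunit of fatty acid synthase, was 1.82-fold lower (1.81 to 1.83), CKI1, the choline kinase, 1.59-fold lower (1.54 to 1.64) and ADO1, the adenosine kinase, 1.57-fold lower (1.55 to 1.58). CDS1, the CDP-diacylglycerol synthase, was at -0.05 and CPT1, a cholinephosphotransferase, at 0.25. The match of INO4 also lies in the window of its divergent neighbour YOL107W, which was at 0.12. The counts also depend on the motif and the window: with the 500-base window 9 of 88 genes were lower (10.2%) and 6 higher (6.82%), and with the core in the shorter window 21 of 395 were lower (5.32%) and 33 higher (8.35%).

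**Figure D4:**
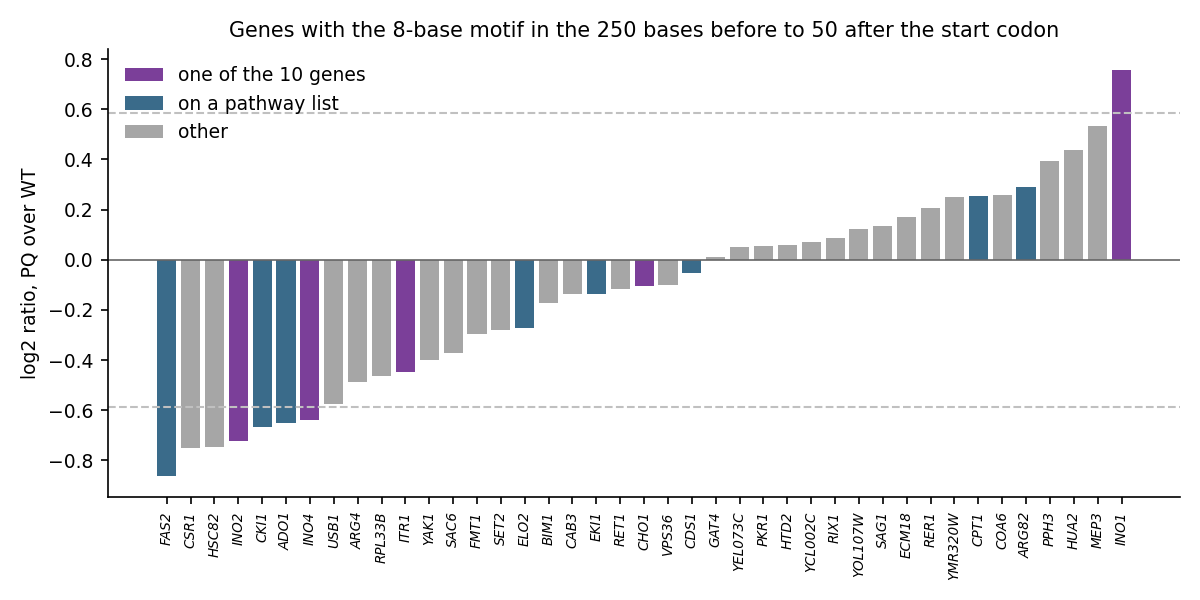
Log2 ratio of normalized reads, PQ over WT, for each of the 41 genes with the 8-base motif in the window, ordered from lowest to highest; purple bars are among the 10 genes, blue bars on a pathway list, and dashed lines mark 1.5-fold. FAS2 is lowest at -0.86 and INO1 is highest at 0.76, the 1 bar above the upper line.

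The rest of the lipid and inositol network was covered by 13 lists with 85 genes, all with values. Past 1.5-fold, 5 of them were higher (7.75% of all genes were) and 7 lower (5.88% of all genes were), and their median was 0.00 (-0.0030). Genes named below are the highest and lowest of each list, and SAH1, ADO1, FAS1, ACC1, PLB1 and NTE1, which are named because they passed 1.5-fold, and HAC1 and LPP1, all chosen after their values were seen.

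Genes of methyl group supply, which serves Cho2 and Opi3, had lower values in PQ, apart from SAM1, which was close to its WT value. Of 4 genes for S-adenosylmethionine supply and recycling 3 were at least 1.5-fold lower (5.88% of all genes were) and the median was -0.66. With both libraries scaled to total reads, SAM2 alone of this list was lower by as much, where 2.36% of all genes were. SAM2, an S-adenosylmethionine synthetase, had 22314 normalized reads in PQ and 43361 in WT, which is 1.94-fold lower (1.91 to 1.97). SAH1, which clears the S-adenosylhomocysteine that methylation leaves behind, was 1.59-fold lower (1.57 to 1.60), and ADO1 acts on the adenosine released. SAM1, the paralog of SAM2 at 83.6% identity, had 142828 normalized reads in PQ and 147753 in WT, a log2 change of -0.05. It thus had more reads than SAM2 in both libraries.

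Fatty acid synthesis genes were lower at the entry steps and closer to WT elsewhere. Of 9 genes 3 were at least 1.5-fold lower (5.88% of all genes were) and the median was -0.12. With both libraries scaled to total reads, FAS2 alone of this list was lower by as much, where 2.36% of all genes were. ELO1 was then past 1.5-fold on the higher side, where 16.9% of all genes were. ACC1, the acetyl-CoA carboxylase, was 1.61-fold lower (1.60 to 1.62), FAS1, the beta subunit of fatty acid synthase, 1.75-fold lower (1.74 to 1.77) and FAS2 as given above. ELO1, an elongase, was 1.33-fold higher (1.31 to 1.35). SAH1, ADO1, ACC1, FAS1 and FAS2 belong to the highest class of mean level, whose median was -0.31, and relative to their class none of the 5 passed 1.5-fold. Under that centring the 2 pathway genes at least 1.5-fold lower were SAM2 and CKI1.

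The lists of phospholipases and of phosphatidylserine transport held the highest log2 changes of the 85 genes. UPS2, which with Mdm35 moves phosphatidylserine across the mitochondrial intermembrane space to Psd1, had 13808 normalized reads in PQ and 4527 in WT, which is 3.05-fold higher (2.95 to 3.16). The other 7 genes of its list lay within 1.5-fold, with PSD2, the second decarboxylase, at -0.15 and a list median of 0.00 (0.0030). PLB3, a phospholipase B, had 50570 in PQ and 20960 in WT, which is 2.41-fold higher (2.37 to 2.45). PLB1, its paralog, was 1.70-fold higher (1.68 to 1.73) and NTE1, which removes both acyl chains from phosphatidylcholine, 1.56-fold higher (1.53 to 1.59). PLB2, another phospholipase B, was 1.44-fold lower (1.41 to 1.46). The phospholipase list had a median of 0.06 with 3 of 7 genes at least 1.5-fold higher, where 7.75% of all genes were.

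Around phosphatidate, the lipid that Opi1 senses, 1 gene passed 1.5-fold under the deposited scaling. With both libraries scaled to total reads, GPT2 and LPP1 were also higher by as much, where 16.9% of all genes were. DGK1, the kinase that makes phosphatidate from diacylglycerol, had 21632 normalized reads in PQ and 13491 in WT, which is 1.60-fold higher (1.57 to 1.64). NEM1, the phosphatase subunit that activates the opposing enzyme Pah1, was 1.40-fold lower (1.35 to 1.45), and the list of 7 phosphatases and kinase had a median of 0.16. Among 7 genes that make phosphatidate and CDP-diacylglycerol, with a median of -0.11, GPT2, an acyltransferase of the first step, was at 0.48 and AYR1, a reductase of the dihydroxyacetone phosphate route, at -0.35.

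The Kennedy pathway, which makes phosphatidylcholine from choline and phosphatidylethanolamine from ethanolamine, had a median of -0.14 over 7 genes. CPT1 was the highest, and CKI1 was the 1 gene at least 1.5-fold lower (5.88% of all genes were). With both libraries scaled to total reads, CKI1 did not pass 1.5-fold. Partners of the regulators differed little. Their 11 genes had a median of -0.08, from CYC8, a general corepressor, at -0.34 to IRE1, the sensor of the unfolded protein response, at 0.29. HAC1, the factor that Ire1 activates by splicing its transcript, was at 0.01, a value that does not separate spliced from unspliced transcript.

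Lists further from the switch had 0 genes past 1.5-fold under the deposited scaling, and AUR1, GEP4 and GIT1 were higher by as much with both libraries scaled to total reads. Inositol sphingolipid synthesis had all 6 genes above 0 and a median of 0.24, from KEI1 at 0.05 to AUR1, the inositol phosphorylceramide synthase, at 0.38. Cardiolipin synthesis had all 5 above 0 and a median of 0.21, from CRD1, the cardiolipin synthase, at 0.05 to GEP4, the phosphatase before it, at 0.33. Of all 5973 genes 2966 were above 0 and 3006 below, and of the 85 pathway genes 42 were above and 43 below. Phosphoinositide kinases had a median of 0.03 over 6 genes, from PIK1 at -0.08 to FAB1 at 0.19. Inositol polyphosphate kinases had a median of 0.08 over 4, from VIP1 at -0.27 to ARG82 at 0.29. Inositol uptake and monophosphatase genes had a median of -0.09 over 4, from INM2 at -0.26 to GIT1, a glycerophosphoinositol transporter, at 0.43.

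**Figure D5:**
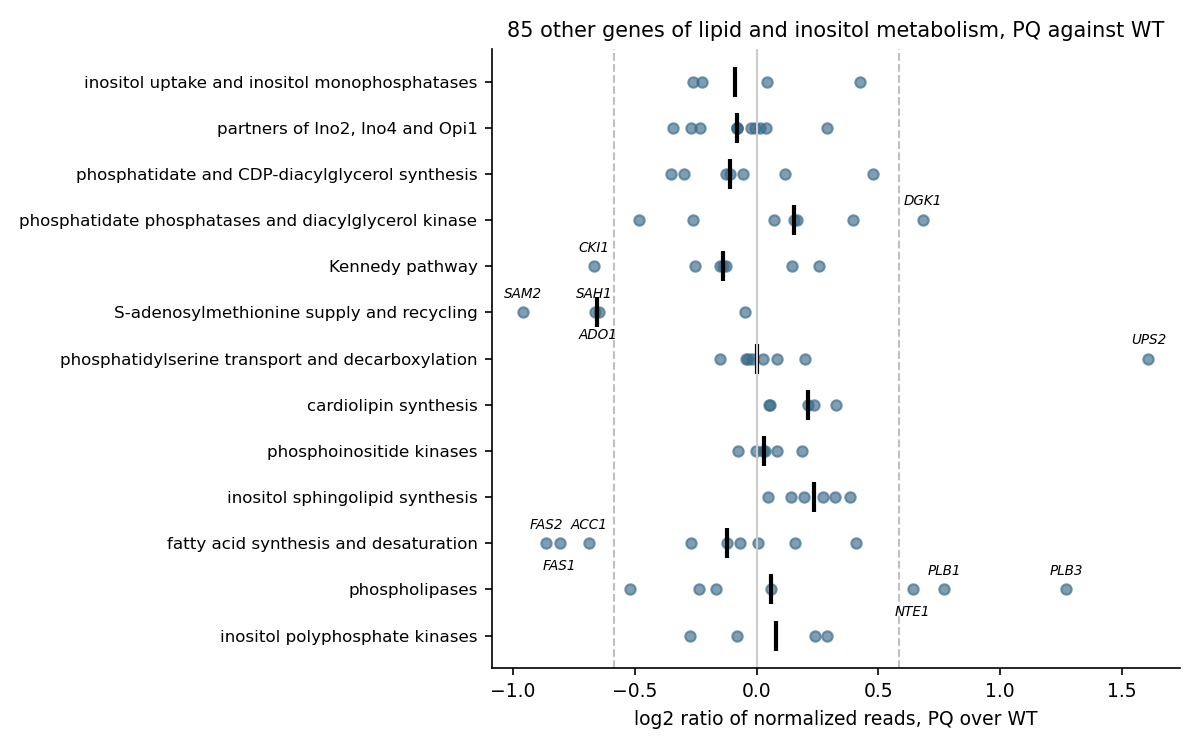
Log2 ratio of normalized reads, PQ over WT, for the 85 genes of 13 lists, with 1 circle per gene, a black tick at each list median and dashed lines at 1.5-fold; genes beyond the lines are named. UPS2 at 1.61 and PLB3 at 1.27 lie furthest to the right and SAM2 at -0.96 furthest to the left.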

How the data were processed

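RNA from 1 PQ and 1 WT culture was sequenced, grouped by the treatment label. The authors deposited a single table holding a normalized signal for each gene in both libraries. From the values, each entry is a whole multiple, within 0.01 read, of 1 step per library (0.913 normalized units in PQ and 1.10 in WT), that is, a read count divided by a size factor. The log2 column deposited by the authors equals the log2 ratio of these signals to within 8.4e-05, and their p-value columns were copied as given. Tools listed in the submitters' processing notes, without roles, are featureCounts, DESeq2, STAR 2.5.2b, Subread 1.5.2 and Trimmomatic 0.36. The sources used here give no strandedness, build or annotation; R64 served here for names and promoter sequences.

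The unnamed row (0.0068% of PQ and 0.0045% of WT reads) was left out. No test was run, because each group is 1 library. Folds carry 95% Clopper-Pearson intervals, and ratios between genes carry normal intervals on the log scale from the read counts. A gene was counted as past the fold at 1.5-fold if its mean reached 50 normalized reads. All 10 genes and all 85 pathway genes matched RefSeq R64 by name. No member overlapped an annotated gene, and none had a copy at 95% identity (BLAST+ 2.17.0). The members, lists and fold were chosen with earlier results of these data known. Named genes are all 10 members and the highest and lowest gene of each list; other genes named were chosen after their values were seen. Alternatives were scaling, centring, pseudocounts of 1 and 10, a 2-fold limit, no minimum mean, means and motif length. The calculation was checked on simulated counts. The work used scipy 1.17.1, pandas 2.3.3, matplotlib 3.10.9 and numpy 2.4.6 under Python 3.11.15.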

Additional observations from a re-analysis of the deposited data

How the results depend on the processing

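Centring on the median gene and pseudocounts of 1 or 10 left all 10 log2 changes within their counting intervals, and no minimum mean gave the same counts. Scaling to total reads moved the median of the 10 genes to 0.0078 (-0.25 as reported), that of the regulators to -0.38 and that of the enzyme and transporter genes to 0.12. It gave 2 members higher and 0 lower, and 11 pathway genes higher and 2 lower, and raised the share of higher calls among all genes to 87.7%, from 56.9%. Centring on the class of mean level gave a median of -0.093 for the 10 genes and a difference of 0.63 between enzyme and regulator medians. Under it 2 members were higher and 2 lower, and 5 pathway genes were higher and 2 lower. With means in place of medians the regulators stood at -0.41 and the difference at 0.36. At 2-fold, 0 members were higher and 0 lower, and 2 pathway genes were higher and 0 lower. The 9-base motif was before 3 of the 10 genes in either window, and the core before 8 in the longer window, which was chosen after seeing the data. No paired analysis was possible because each group is 1 library. Depth is not the limit for these genes, since the scarcest, INO1, had 2422 reads in PQ and 1194 in WT.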

Other observations

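The genes next to the 10 on their upstream side give a view of their surroundings. INO4, OPI3, PIS1 and INO2 are transcribed away from their upstream neighbour. OPI3 and MOG1, which start 159 bases apart, were both below 0, at -0.49 and -0.43. INO4 was at -0.64 and YOL107W, 215 bases away, at 0.12. PIS1 and MRD1 were at -0.14 and 0.07, and INO2 and YDR124W at -0.72 and 0.15. Of the genes in tandem, SNA3 before INO1 was at 0.42, GAL83 before CHO1 at -0.55, FMP41 before PSD1 at -0.35, PTI1 before CHO2 at 0.31, APM2 before OPI1 at -0.10 and SEC20 before ITR1 at 0.02. Whether neighbours share a cause was not tested.

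The 10 genes together held 0.139% of the reads on named genes in PQ and 0.126% in WT. In the deposited normalized units their sum was 209507 in PQ and 227584 in WT, so whether PQ is higher or lower depends on the scaling.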
